A study of Mus musculus with 20 samples.

Results

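The genes described are 10 that form or mark the inner blood-retinal barrier and the junctions of endothelial cells: Cldn5, Ocln, Tjp1, Cdh5, Pecam1, Esam, Mfsd2a, Plvap, Cav1 and Abcb1a. They were chosen by symbol for what their proteins are known to do, with earlier results of these data known. All 10 were found among the 19368 genes listed for the oxygen-induced retinopathy (OIR) libraries and the 19102 listed for the injected libraries. Bulk RNA-Seq of mouse retina was measured in 20 libraries, 5 in each of 4 groups, all on a C57BL/6J background and from animals of both sexes. The OIR groups were Atf6+/+ and Atf6-/- mice kept in 75% oxygen from postnatal day (P) 7 to P12 and returned to room air until P17, and they were compared to ask which genes differ with loss of Atf6, an endoplasmic reticulum stress sensor that is cleaved to a transcription factor. The injected groups were wildtype mice given 1 µL of saline or 1 µL of 10 µM Ceapin-A7, a small molecule that blocks ATF6 activation, in both eyes at P30, with retinas taken 24 h later. Both injected solutions carried dimethyl sulfoxide. The Atf6-/- allele has a premature stop codon in exon IV and yields no protein in any cell, both OIR genotypes had passed through oxygen, and no group of room-air P17 retinas was analysed here.

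In the inner retina, endothelial cells are sealed to each other by tight junctions, in which claudins and occludin are held by scaffolds such as zonula occludens-1, and by adherens junctions built on VE-cadherin. They also keep vesicle traffic across the cell low, a property that depends on the lipid transporter MFSD2A, and they pump drugs back into the blood with P-glycoprotein. New vessels, such as the tufts that form in OIR, are known for immature junctions and for PLVAP, the protein of the diaphragms of fenestrae and caveolae, which mature retinal vessels largely lack.

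Values are FPKM as deposited, fragments divided by transcript length and by the number of mapped fragments, so that levels may be compared between genes. The libraries had FPKM sums from 410599 to 456250. Such sums are not a depth, which is unknown here. Atf6 itself was measured at 14.61 to 16.05 FPKM in Atf6+/+ OIR and at 13.57 to 16.83 in Atf6-/- OIR, so the transcript level of the targeted gene does not separate the genotypes and does not check the labels. The defining markers of rod photoreceptors were the most abundant of all lists examined, with summed levels from 13671 to 20620 FPKM over the 20 libraries. Lens markers summed to between 2.94 and 355.78 FPKM in Atf6+/+ OIR, between 2 and 3.96 in Atf6-/- OIR, and between 5.65 and 7480 in the injected libraries. The Y-linked gene Ddx3y was above 1 FPKM in 2 Atf6+/+ OIR, 2 Atf6-/- OIR, 1 saline and 3 Ceapin-A7 libraries.

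The 10 genes spanned more than an order of magnitude in level, and 4 of them were higher in every P17 OIR library than in every P30 injected library. These 4 were junction genes. Cdh5, VE-cadherin of the adherens junction, ranged from 6.6 to 14.13 FPKM in the 10 OIR libraries and from 1.75 to 2.62 FPKM in the 10 injected libraries, a ratio of means of 4.54. Pecam1, the adhesion molecule CD31 of endothelial borders, ranged from 11.3 to 18.5 against 3.51 to 5.26 FPKM, a ratio of 3.21. Cldn5, the main claudin of barrier endothelium, ranged from 22.16 to 48.15 against 12.67 to 20.88 FPKM, a ratio of 2.24. Esam, an adhesion molecule of endothelial tight junctions, was closer between the ages, with a ratio of 1.39 and ranges of 11.87 to 17.93 against 10.1 to 11.28 FPKM.

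The other 6 genes had ranges that overlapped between the ages. The ratio of the P17 mean to the P30 mean was 1.25 for Cav1, the coat protein of caveolae, 1.23 for Mfsd2a and 1.21 for Tjp1, which encodes zonula occludens-1. It was 0.978 for Plvap, at 3.03 to 6.72 against 3.72 to 5.43 FPKM. Ocln, occludin, had a ratio of 0.835, and Abcb1a, a P-glycoprotein gene, had the lowest at 0.638, with 1.48 to 3.57 FPKM at P17 and 3.3 to 4.24 at P30. Plvap stood at a mean of 0.313 of the Pecam1 level in Atf6+/+ OIR and 0.278 in Atf6-/- OIR, and at 0.891 in saline and 1.06 in Ceapin-A7 libraries. The ratio of Abcb1a to Pecam1 had means of 0.156 and 0.180 in the OIR groups and of 0.771 and 0.916 in the injected groups. No test was made between P17 and P30, since age, oxygen and injection differ between them and cannot be told apart. The 2 sets of tables were also normalised separately.

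When the 4 groups were ordered by mean for each gene, neighbouring groups overlapped in range except Atf6-/- OIR and saline for Cdh5, Pecam1, Cldn5 and Esam. Within a group, 8 of the 10 genes varied more among the OIR than among the injected libraries, Ocln and Tjp1 being the exceptions. The within-group coefficient of variation was 31.5% for Cldn5, 31.2% for Abcb1a and 28.6% for Cdh5 at P17, against 15.9%, 6.64% and 14.2% at P30. Tjp1 varied least at P17, by 4.89%. Tjp1 and Cav1 were also among the highest genes at both ages, and both are known to be made by retinal cells other than endothelium, as is Ocln.

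**Figure D1:**
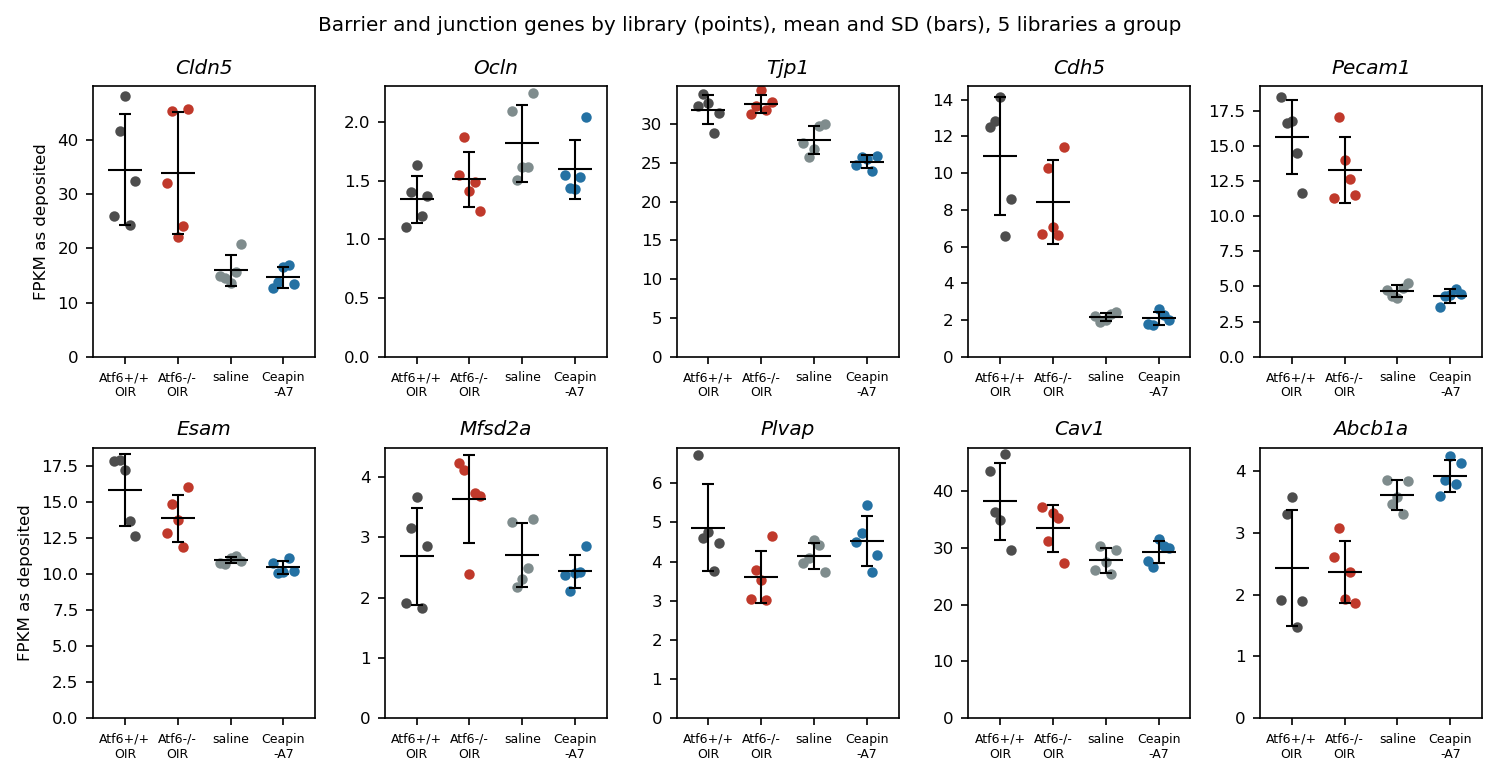
FPKM as deposited (y axis, from 0) of the 10 genes in each library (points) of the 4 groups (x axis), with the group mean (wide bar) and SD (error bars), 5 libraries a group. Cdh5, Pecam1, Cldn5 and Esam are higher in all 10 OIR libraries than in all 10 injected libraries, and the groups within each experiment overlap in every panel.

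ATF6 is known to bind the endoplasmic reticulum stress element, CCAAT followed by 9 letters and CCACG, and the site TGACGTG. A RefSeq table of windows on GRCm38.p6 held the 250 bases before the start of 6 of the 10 genes. They are shown for Cldn5 and Mfsd2a, which carry the CCACG part of the element. The window of Tjp1, which had the smallest p of the 10 genes after Ceapin-A7, is shown too and does not carry it. The windows lie at chr16:18776597-18776846 on the plus strand, chr4:122961189-122961438 on the minus strand and chr7:65371245-65371494 on the minus strand, are written 5′ to 3′, and carry capitals where CCACG or its reverse complement occurs.
Cldn5: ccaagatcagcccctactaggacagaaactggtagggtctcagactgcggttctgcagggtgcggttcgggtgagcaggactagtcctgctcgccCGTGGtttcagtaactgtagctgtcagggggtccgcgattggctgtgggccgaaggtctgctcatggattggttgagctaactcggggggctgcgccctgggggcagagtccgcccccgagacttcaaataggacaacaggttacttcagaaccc
Mfsd2a: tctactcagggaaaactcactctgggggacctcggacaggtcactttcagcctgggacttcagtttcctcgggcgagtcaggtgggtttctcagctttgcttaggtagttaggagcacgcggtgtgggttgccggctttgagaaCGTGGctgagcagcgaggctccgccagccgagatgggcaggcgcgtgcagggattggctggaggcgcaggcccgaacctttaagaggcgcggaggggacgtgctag
Tjp1: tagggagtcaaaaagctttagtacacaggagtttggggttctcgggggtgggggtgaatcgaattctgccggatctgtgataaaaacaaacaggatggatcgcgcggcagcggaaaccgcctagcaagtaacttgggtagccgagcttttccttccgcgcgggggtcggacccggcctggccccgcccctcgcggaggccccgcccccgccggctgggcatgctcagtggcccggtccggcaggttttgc
The letters CCACG were found once before Cldn5, once before Mfsd2a and once in each of 2 Ocln windows, and not before Tjp1 or Abcb1a, while 1 of 2 Cav1 windows held 2 matches. Over all 32851 windows of the same length, 28.3% held CCACG on either strand. Neither TGACGTG, which 1.65% of all windows held, nor the full element, which 0.113% held, was found in the windows of these genes. A match of letters is a description and not a site, and the absence of a match says only that these letters are not in this window.

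In OIR retinas, Mfsd2a was higher and Plvap lower in Atf6-/- than in Atf6+/+ libraries before adjustment (p of 0.05 or less), and neither passed after it. The other 8 genes missed the unadjusted threshold. By limma on log2(FPKM + 0.1), 0 of the 10 genes had an adjusted p under 0.05, where 0.0318% of the 15704 genes tested did. The 5 genes that passed were Duxbl1, Gm29733, Plac9a, Tmem254a and Shmt2, named after their values were seen. Before adjustment 2 of the 10 passed, beside 12.7% of all genes tested. Of the 10, 4 had a positive difference and 6 a negative one, with a median of -0.09 on the log2 scale, where the median over all genes was 0.0028. The genotypes overlapped for all 10 genes, while they did not overlap for 1.80% of all genes.

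Mfsd2a, the lysophospholipid transporter that restrains transcytosis, was measured at 1.91, 3.16, 3.67, 1.83 and 2.85 FPKM in Atf6+/+ libraries 1 to 5. The Atf6-/- libraries gave 4.23, 4.11, 2.39, 3.73 and 3.69 FPKM. All Atf6-/- libraries but replicate 3 exceeded every Atf6+/+ library, and the groups overlapped through that replicate. The difference was 0.46 on the log2 scale (SE 0.21, 95% interval 0.0051 to 0.92), a fold of 1.38, with a limma p of 0.0479 and an adjusted p of 0.390. It was 0.61 (unadjusted p 0.00945) without Atf6-/- replicate 3 and 0.33 (p 0.122) without Atf6+/+ replicate 4. Where limma weighted the libraries by their quality, it was 0.20 (p 0.347). With 1 library left out, p was 0.05 or less only without Atf6+/+ replicate 2 or 3 or Atf6-/- replicate 3.

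Plvap was measured at 6.72, 4.6, 4.75, 3.75 and 4.46 FPKM in Atf6+/+ libraries 1 to 5. The Atf6-/- libraries gave 3.05, 3.78, 3.54, 3.03 and 4.66 FPKM. Replicate 1 of Atf6+/+ stood above all others, and replicates 2 and 5 of Atf6-/- lay above the lowest Atf6+/+ value. The difference was -0.39 (SE 0.17, interval -0.76 to -0.027), a fold of 0.763, with a limma p of 0.0373 and an adjusted p of 0.374. Without Atf6+/+ replicate 1 it was -0.26 with p of 0.0954. With 1 library left out, p was 0.05 or less only without Atf6+/+ replicate 4 or 5 or Atf6-/- replicate 5.

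The ratio of Mfsd2a to Plvap in each library was 0.284, 0.687, 0.773, 0.488 and 0.639 in Atf6+/+ OIR. It was 1.39, 1.09, 0.675, 1.23 and 0.792 in Atf6-/- OIR, so 4 of 5 Atf6-/- libraries lay above all Atf6+/+ libraries. Its mean was 0.663 ± 0.178 (SD, n = 5) in saline and 0.550 ± 0.113 in Ceapin-A7 libraries. This ratio was formed after both genes had been seen to differ, and it is given with no test.

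Among the junction genes, none passed the unadjusted threshold in OIR. Cdh5 was measured at 12.51, 12.85, 14.13, 6.6 and 8.58 FPKM in Atf6+/+ and at 6.67, 10.3, 7.05, 6.65 and 11.44 in Atf6-/-. Atf6+/+ replicates 1 to 3 were above every Atf6-/- library, and Atf6+/+ replicate 4 was below them all. The difference was -0.34 (interval -0.84 to 0.16, limma p 0.166, adjusted p 0.497). Without Atf6+/+ replicate 4 it was -0.52 (p 0.0218), and with the pigment epithelium markers as a covariate, a fit added after the data were seen, it was -0.051 (p 0.845).

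Pecam1 ranged from 11.63 to 18.5 FPKM in Atf6+/+ and from 11.3 to 17.03 in Atf6-/-, a difference of -0.21 (interval -0.50 to 0.072, p 0.130). It was -0.31 (p 0.0245) without Atf6+/+ replicate 5 and -0.30 (p 0.0364) without Atf6-/- replicate 2. Esam ranged from 12.65 to 17.93 and from 11.87 to 16.06 FPKM, a difference of -0.17 (interval -0.43 to 0.10, p 0.203). Their groups overlapped over most of their ranges.

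Cldn5 was measured at 25.98, 41.65, 48.15, 24.27 and 32.39 FPKM in Atf6+/+ and at 31.97, 45.32, 22.16, 24.15 and 45.68 in Atf6-/-. High and low libraries occurred in both genotypes, and the means, 34.5 ± 10.2 and 33.9 ± 11.2 (SD, n = 5), differed by -0.024 on the log2 scale (p 0.924). The interval was wide, from -0.56 to 0.51, or a fold of 0.679 to 1.42. Ocln was at 1.11 to 1.63 FPKM in Atf6+/+ and 1.24 to 1.87 in Atf6-/-, a difference of 0.18 (interval -0.099 to 0.45, p 0.187). Tjp1, at 28.83 to 33.83 and 31.35 to 34.39 FPKM, had the narrowest interval of the 10 in OIR, from -0.087 to 0.19 about a difference of 0.051 (p 0.436).

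Of the remaining members, Cav1 ranged from 29.52 to 46.56 FPKM in Atf6+/+ and from 27.35 to 37.15 in Atf6-/-. The difference was -0.16 (interval -0.41 to 0.087, p 0.181), and -0.24 (p 0.0413) without Atf6+/+ replicate 5. Abcb1a ranged from 1.48 to 3.57 and from 1.87 to 3.07 FPKM, a difference of 0.033 (interval -0.46 to 0.53, p 0.888). Abcb1a is nearly identical to Abcb1b, the other P-glycoprotein gene of the mouse, and fragments that fit both could have been divided between them. Abcb1a also overlaps Rundc3b, and Plvap overlaps Gtpbp3, in the RefSeq annotation of GRCm38.p6, and whether fragments were counted by strand is not given in the sources used here. Abcb1b was at means of 0.328 and 0.372 FPKM in the OIR groups.

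**Figure D2:**
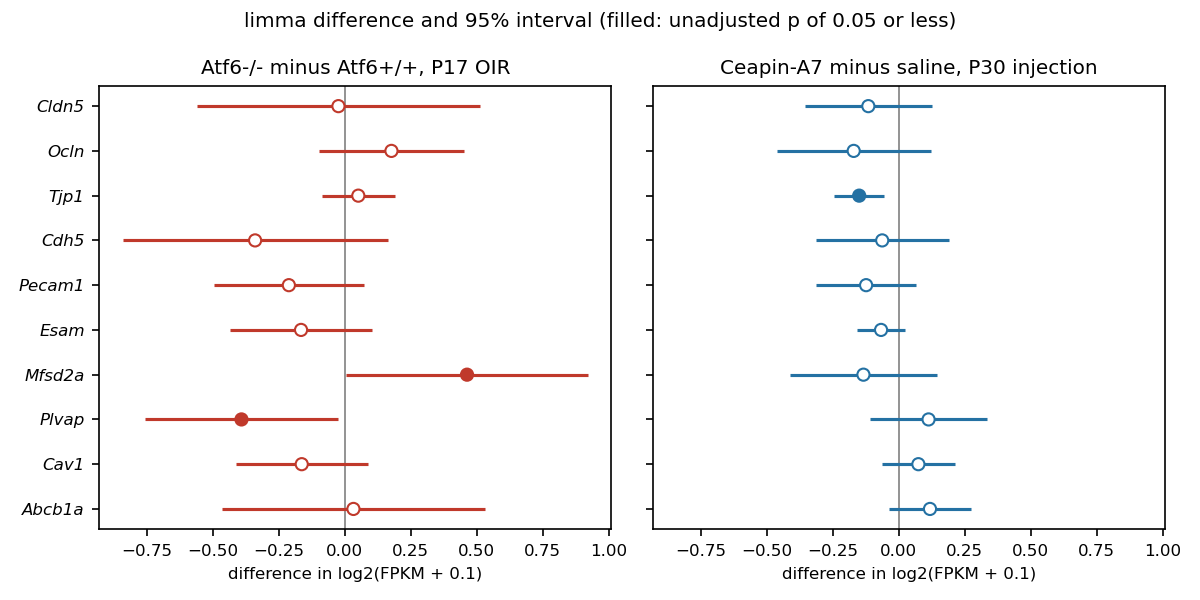
Difference between groups in log2(FPKM + 0.1) (x axis) for each gene (y axis), with the 95% interval from limma, for Atf6-/- minus Atf6+/+ after OIR (left) and Ceapin-A7 minus saline (right). Filled points have an unadjusted p of 0.05 or less, which are Mfsd2a at 0.46 and Plvap at -0.39 on the left and Tjp1 at -0.15 on the right, and no gene has an adjusted p under 0.05.

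Cdh5 and Esam varied with other endothelial genes from library to library in OIR. A mean of 14 endothelial markers that are not among the 10 genes, such as Tie1, Tek, Kdr and Egfl7, was taken in each OIR library. With each group centred on its own mean, Cdh5 followed it over the 10 libraries with Pearson r of 0.961 (exact permutation within groups, p 4.86e-04, adjusted p 0.0306 over 110 relations) and Spearman rho of 0.976 (p 1.39e-04, adjusted p 0.0153). Without the 2 libraries farthest on the marker mean, r was 0.940. Esam followed it with r of 0.955 (exact permutation p 5.56e-04, adjusted p 0.0306) and rho of 0.891 (adjusted p 0.151), and r was 0.938 without those libraries.

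No other relation passed after adjustment. The marker mean gave r of 0.769 with Tjp1, 0.736 with Plvap, 0.716 with Cldn5, 0.618 with Pecam1, 0.546 with Abcb1a, 0.355 with Mfsd2a, 0.201 with Ocln and -0.36 with Cav1, and their adjusted exact permutation p lay between 0.142 and 0.764. Their Spearman rho ran from -0.48 to 0.78, with adjusted p from 0.164. In the 10 injected libraries Cdh5 had the highest Pearson r, at 0.667 (exact permutation p 0.0359, adjusted p 0.193), but not by the other measures. Its rho was 0.600 (adjusted exact permutation p 0.312), below Tjp1 at 0.697 and Mfsd2a at 0.612. Without the 2 farthest libraries its r was 0.353, against 0.783 for Mfsd2a, 0.724 for Ocln and 0.640 for Tjp1. Esam had r of -0.44 there (adjusted exact permutation p 0.543; rho -0.58, adjusted p 0.284). Between members in OIR, Cldn5 and Mfsd2a had r of 0.806 (exact permutation p 0.00410, adjusted p 0.0901), rho of 0.770 and r of 0.808 without the 2 farthest libraries. Esam and Plvap had r of 0.793 (exact permutation p 0.00167, adjusted p 0.0611), rho of 0.830 and r of 0.812 without them, and neither pair passed after adjustment.

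**Figure D3:**
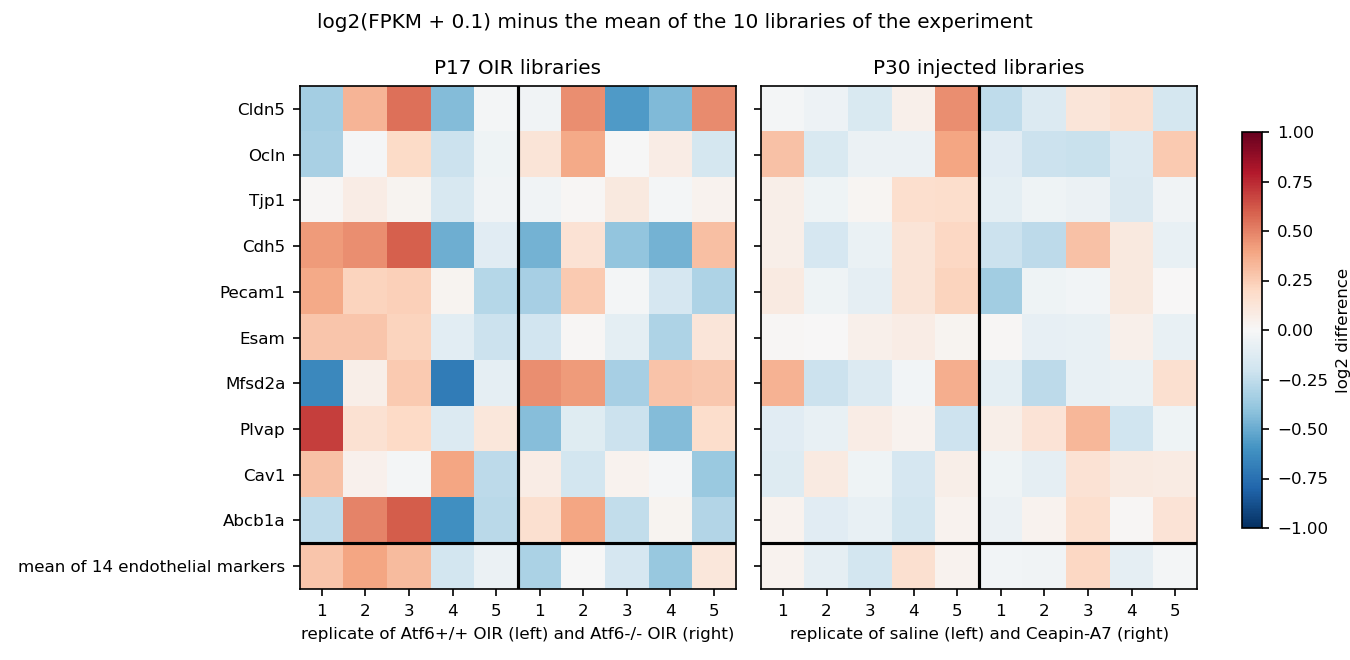
Each gene's log2(FPKM + 0.1) in each library minus its mean over the 10 libraries of the experiment (colour), and in the bottom row the same for the mean of 14 endothelial markers on rescaled values. Columns are replicates, with Atf6+/+ OIR left of Atf6-/- OIR and saline left of Ceapin-A7. Cdh5 and Esam follow the bottom row in OIR, and the colours are paler in the injected libraries, where the spread is smaller.

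The endothelial markers themselves were mostly lower in Atf6-/- OIR libraries. Of the 14, 12 had a negative difference and 6 of these had a p of 0.05 or less, beside 12.7% of all genes tested. None had an adjusted p under 0.05, and their median was -0.29. Their summed level was 140.89 to 193.61 FPKM in Atf6+/+ and 117.48 to 158.86 in Atf6-/-, and none was at 0 in every library. All 10 mural cell markers had a negative difference, 5 at p of 0.05 or less, with a median of -0.51 and sums of 105.45 to 155.93 against 85.4 to 109.73 FPKM. In bulk samples, fewer cells of a type and less RNA per cell cannot be told apart.

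Pigment epithelium markers had the opposite sign, with 9 of 10 positive and a median of 0.83. Of these, 5 were at p of 0.05 or less, beside the same 12.7% of all genes. Their sums were 199.78 to 333.99 FPKM in Atf6+/+ and 268.24 to 520.34 in Atf6-/-, and the most abundant was Rlbp1, which Muller glia also make. The pigment epithelium forms tight junctions of its own, with Tjp1 and Ocln among their proteins. Lens markers had 6 of 7 negative differences, all 6 at p of 0.05 or less. The part of pigment epithelium in the differences of the 10 genes was not tested beyond a covariate fit, and the part of lens tissue was not tested.

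With the endothelial marker mean as a covariate, the median difference of the 10 genes in OIR went from -0.09 to 0.17. Cdh5 went from -0.34 to 0.20, Esam from -0.17 to 0.11, Cldn5 from -0.024 to 0.41 and Abcb1a from 0.033 to 0.33, none of them with p of 0.05 or less. Plvap went from -0.39 to -0.10 (limma p 0.512), while Mfsd2a was at 0.64 (p 0.0272) and Tjp1 at 0.14 (p 0.0413). Mfsd2a and Tjp1 each had an adjusted p of 0.999, and 0 of the 10 had one under 0.05. Over all 15704 genes tested, 649 had p of 0.05 or less in this fit. The marker mean differed between the genotypes, 3.10 ± 0.25 against 2.80 ± 0.21 (SD, n = 5, log2 scale), so this fit cannot fully tell genotype and marker level apart. With the pigment epithelium marker mean as a covariate, which was added after the data were seen, the median of the 10 was 0.062. Mfsd2a was at 0.52 (limma p 0.0745), Plvap at -0.16 (p 0.398) and Cdh5 at -0.051 (p 0.845). Those markers had a median difference of 0.83 between the genotypes, so this fit cannot fully tell genotype and marker level apart either.

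**Figure D4:**
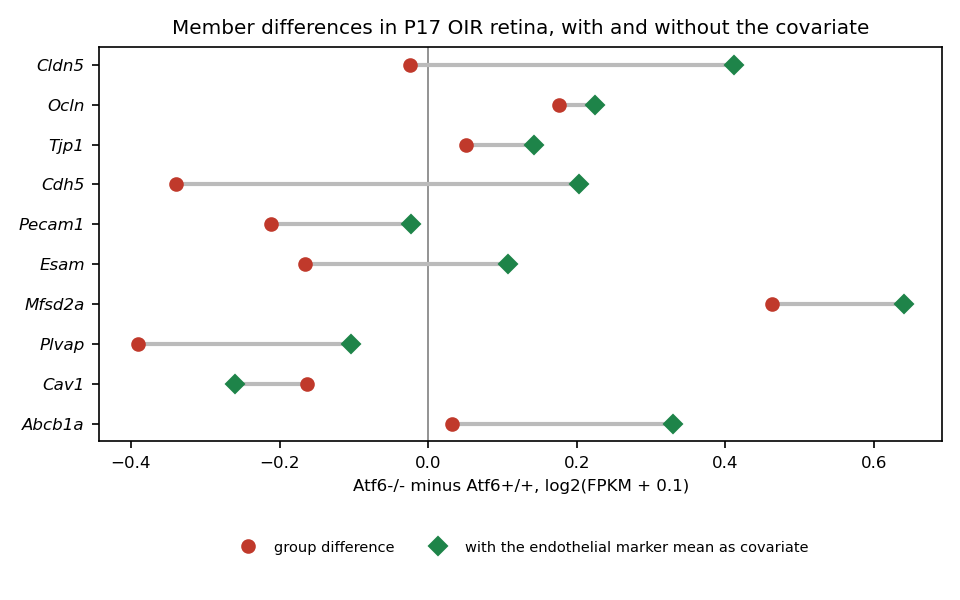
Difference between Atf6-/- and Atf6+/+ OIR libraries in log2(FPKM + 0.1) (x axis) for each gene (y axis), as the plain group difference (circles) and with the mean of 14 endothelial markers in each library as a covariate (diamonds). Lines join the values of a gene. Cdh5, Esam and Cldn5 cross 0, Plvap moves from -0.39 to -0.10, and Mfsd2a lies at 0.46 and 0.64.

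Other genes of the barrier were examined in lists chosen for function, with earlier results of these data known. Of all genes tested in OIR, 12.7% had a p of 0.05 or less. Of 20 further tight and adherens junction genes in OIR, 3 were higher and 2 lower at p of 0.05 or less, none with an adjusted p under 0.05 by limma, and the median was -0.011. Jam2, a junctional adhesion molecule, had 53.2 ± 4.3 FPKM in Atf6+/+ and 64.3 ± 6.2 in Atf6-/- (SD, n = 5), a difference of 0.29 with p of 0.00143. Cldn1, a claudin of epithelia, had 1.16 ± 0.36 and 2.16 ± 0.76 FPKM, a difference of 0.84 with p of 0.00799. In Atf6-/- libraries 1 to 5 Cldn1 was at 1.53, 2.87, 2.4, 2.82 and 1.19 FPKM, and the pigment epithelium enzyme gene Rpe65 at 1.1, 11.18, 5.84, 9.21 and 2.26. Replicates 2, 3 and 4 were the highest of the 5 for both, and the part of pigment epithelium in the Cldn1 difference was not tested. Nectin2, an adherens junction adhesion molecule, differed by -0.33 (p 0.0291), and Cldn12, another claudin, by 0.18 (p 0.0377).

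Of 12 further genes of caveolae and vesicle transport, 0 were higher and 2 lower at p of 0.05 or less, with a median of -0.096. Both were cavins, proteins that shape caveolae with CAV1. Cavin1 had 7.49 ± 1.65 against 5.15 ± 1.5 FPKM, a difference of -0.53 (p 0.0252), and Cavin3 28.0 ± 6.1 against 21.4 ± 3.2 FPKM, a difference of -0.36 (p 0.0271).

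Of 14 further barrier transporters, 10 had a positive difference, 2 of them at p of 0.05 or less, with a median of 0.097. Slc22a8, an organic anion transporter of barrier vessels, had 1.83 ± 0.41 FPKM in Atf6+/+ and 3.15 ± 0.48 in Atf6-/-. Its groups did not overlap, as was so for 1.80% of all genes. The difference was 0.78 (SE 0.16, p 3.56e-04, adjusted p 0.238). Slco1c1, which carries thyroxine across barrier endothelium, had 1.45 ± 0.67 against 2.12 ± 0.58 FPKM, a difference of 0.62 (p 0.0444). Among the Atf6-/- libraries both genes were highest in replicates 2 and 4, which also held the most Rpe65. Replicate 1, with the least Rpe65 of them, held more of both than replicate 3. The part of pigment epithelium in these differences was not tested.

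In the Norrin and beta-catenin pathway, which induces the barrier state, 8 of 9 genes had a negative difference, with a median of -0.096. The co-receptor Lrp5 differed by -0.55 (p 0.0419) and its relative Lrp6 by 0.16 (p 0.0410). Lrp5 was at 2.15 to 2.9 FPKM in Atf6-/- replicates 1 to 4 but at 5.5 in replicate 5. The highest Atf6+/+ value was 5.36, and the lowest was 3.04 in replicate 4. Leaving out Atf6-/- replicate 5 or Atf6+/+ replicate 4 raised the limma count of all genes at p of 0.05 or less from 2002 to 4011 or 3762. Of 8 tested genes of activated or permeable endothelium, 7 had a negative difference, with a median of -0.51. Esm1, a tip cell gene, had 4.00 ± 1.93 against 1.74 ± 0.92 FPKM, a difference of -1.13 (p 0.0104), and Apln, the ligand apelin of sprouting vessels, differed by -0.85 (p 0.0244). None of the genes in these 5 lists had an adjusted p under 0.05 by limma.

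After Ceapin-A7, Tjp1 was lower before adjustment (p of 0.05 or less), and the other 9 genes missed that threshold. By limma, 0 of the 10 had an adjusted p under 0.05, as did 0.00% of the 15408 genes tested. At p of 0.05 or less, 1 of the 10 passed, beside 10.4% of all genes. The median difference was -0.091, with 3 positive and 7 negative, where the median over all genes was 8.91e-04.

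Tjp1 was measured at 27.58, 25.76, 26.81, 29.71 and 29.95 FPKM in saline libraries 1 to 5. The Ceapin-A7 libraries gave 24.72, 25.77, 25.46, 23.96 and 25.88 FPKM. Only saline replicate 2 lay within the Ceapin-A7 range as deposited, and on rescaled values the groups did not overlap, as was so for 1.47% of all genes. The difference was -0.15 (SE 0.043, interval -0.24 to -0.056), a fold of 0.901, with a limma p of 0.00478, the 118th smallest of all genes, and an adjusted p of 0.472. It had a p of 0.05 or less in all 25 alternative fits, from -0.19 to -0.10, with a lowest adjusted p of 0.186.

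Saline replicates 4 and 5, which held the highest Tjp1 values, also stood apart in retinal cell markers. Their rod marker sums were 14588 and 13671 FPKM, against 18512 to 20620 in the other saline and 18874 to 20191 in the Ceapin-A7 libraries. Glul, the glutamine synthetase of Muller glia, was at 254 and 330.2 FPKM in them and at 624.1 to 1024 in the other saline libraries, while the intermediate filament gene Vim was at 327 and 312 against 103 to 189. With both libraries left out, a choice made after the data were seen, Tjp1 differed by -0.10 (limma p 0.0341, adjusted p 0.991), the median of the 10 was -0.032, and 769 in place of 1595 of all genes had p of 0.05 or less. The part of these cell types in the Tjp1 difference was not tested otherwise. In OIR Tjp1 differed by 0.051, and the 2 differences were not tested against each other.

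Cldn5 was measured at 14.92, 14.62, 13.62, 15.65 and 20.88 FPKM in saline and at 12.67, 13.72, 16.48, 16.91 and 13.4 in Ceapin-A7 libraries. Saline replicate 5 was the highest, and the other 9 were mixed, with a difference of -0.12 (interval -0.36 to 0.13, p 0.317). Ocln was at 1.51 to 2.25 FPKM in saline and 1.43 to 2.04 in Ceapin-A7 libraries, a difference of -0.17 (interval -0.46 to 0.12, p 0.226).

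Cdh5 was at 1.87 to 2.46 FPKM in saline and 1.75 to 2.62 in Ceapin-A7 libraries, and the difference was -0.063 (interval -0.32 to 0.19). Pecam1 was at 4.2 to 5.26 and 3.51 to 4.81 FPKM, a difference of -0.12 (interval -0.31 to 0.066). Esam was at 10.75 to 11.28 and 10.1 to 11.11 FPKM, and its interval, from -0.16 to 0.025, was the narrowest of the 10 after injection. The 3 genes overlapped between the groups.

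Of the transcytosis and efflux genes, Mfsd2a was at 2.18 to 3.3 FPKM in saline and 2.11 to 2.86 in Ceapin-A7 libraries, a difference of -0.13 (interval -0.41 to 0.14, p 0.312). Plvap was at 3.72 to 4.54 and 3.73 to 5.43 FPKM, a difference of 0.11 (interval -0.11 to 0.34, p 0.289). Cav1 differed by 0.074 (interval -0.064 to 0.21) and Abcb1a by 0.12 (interval -0.037 to 0.27). The signs of the Mfsd2a and Plvap differences were opposite to those in OIR, and the difference between the experiments was not tested.

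In the wider barrier lists after Ceapin-A7, no gene had an adjusted p under 0.05 by limma. At p of 0.05 or less stood 3 of 20 junction, 1 of 12 transcytosis, 1 of 14 transporter, 2 of 9 Norrin pathway and 1 of 7 activated endothelium genes, beside 10.4% of all genes. The 3 junction genes were lower, and 14 of the 20 had a negative difference. Lsr, a protein of tricellular junctions, had 4.04 ± 0.49 FPKM in saline and 3.19 ± 0.16 in Ceapin-A7 libraries and differed by -0.32 (limma p 0.00213). It did not overlap between them, as was so for 1.47% of all genes. Nectin2 differed by -0.22 (limma p 0.0379) and Afdn, the nectin-binding scaffold afadin, by -0.095 (p 0.0264). Saline replicates 4 and 5, which stood apart in retinal cell markers, held the highest saline values of all 3 genes.

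Of the 12 caveolae and transcytosis genes, Ehd4, a membrane remodelling protein, was higher by 0.18 (p 0.00677), and of the 14 transporters the glutamine carrier Slc38a5 differed by -0.49 (p 0.0355). In the Norrin list, Sox17, an endothelial transcription factor, was at 1.13 ± 0.08 against 1.43 ± 0.13 FPKM with no overlap. Its difference was 0.31 (limma p 0.00605), and the ligand Ndp differed by -0.41 (p 0.0384). Ndp was at 9.84 and 12.62 FPKM in saline replicates 4 and 5 and at 5.99 to 7.12 in the other saline libraries. Those replicates also held the highest saline values of Slc38a5 and Sox17, but not of Ehd4. The differences of these genes without them are not given here. Esm1 was at most 0.39 FPKM in any injected library, and its difference was 0.98 (p 0.0140). Endothelial markers had 8 of 14 positive differences, with a median of 0.033 and sums of 78.79 to 101.88 FPKM in saline and 75.28 to 89.34 in Ceapin-A7 libraries. Mural markers summed to 30.83 to 43.22 and 35.82 to 85.82 FPKM, the highest being Ceapin-A7 replicate 3. Pigment epithelium markers had 5 of 10 positive differences, with 4 at p of 0.05 or less in both directions. Lens markers had 8 of 8 positive, with 0 at p of 0.05 or less. Their sums varied widely in both groups, from 5.65 to 4164 FPKM in saline and from 61.81 to 7480 in Ceapin-A7 libraries.

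**Figure D5:**
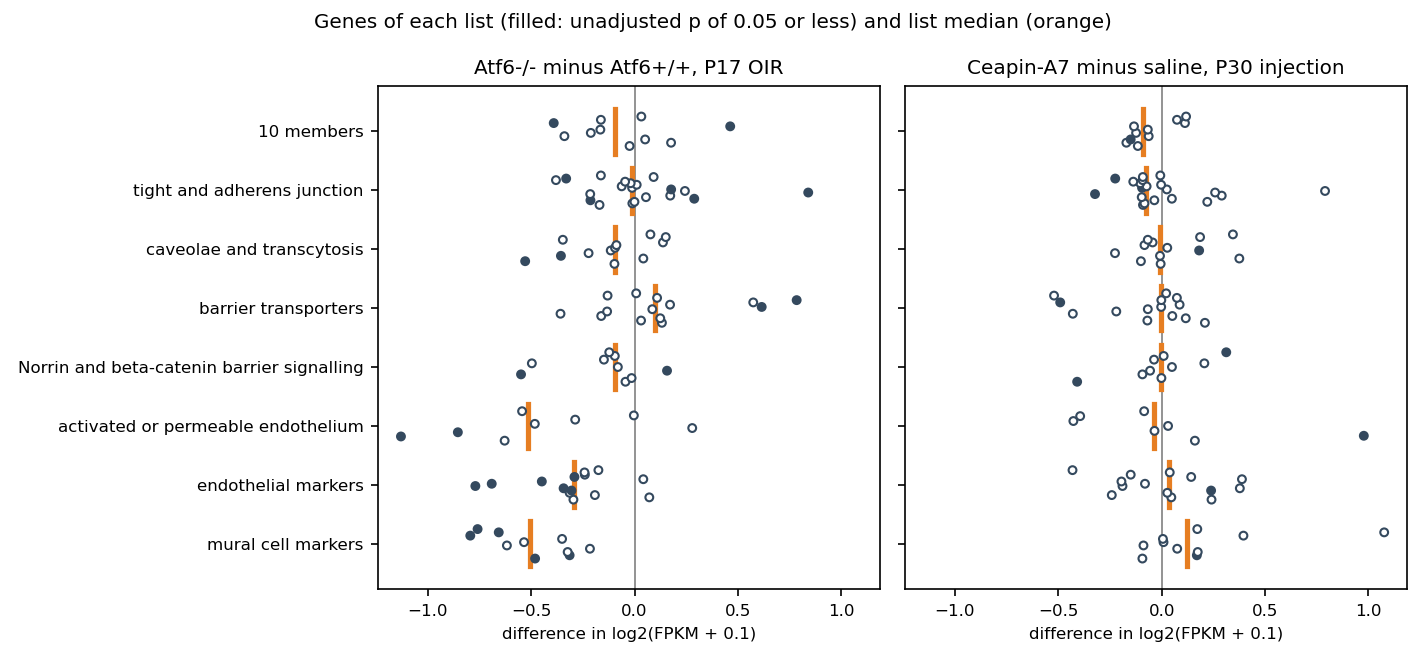
Difference in log2(FPKM + 0.1) (x axis) of each gene (points) in the 10 described genes and 7 other lists (y axis), with the list median (orange), for Atf6-/- minus Atf6+/+ after OIR (left) and Ceapin-A7 minus saline (right). Filled points have an unadjusted p of 0.05 or less. In OIR the medians of the mural, activated endothelium and endothelial marker lists are -0.51, -0.51 and -0.29, while that of the 10 genes is -0.09 and that of the transporters 0.097.

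The genes whose values followed each member most closely were found over the 20 libraries, with each group centred on its own mean, among 12567 genes with a mean of at least 1 FPKM in both experiments. Libraries share their cell makeup and scaling, so these correlations are a description. For Cdh5 the highest was Tie1, an endothelial receptor (r 0.909), then C130074G19Rik and Plcb3 (0.894 and 0.888). Abcb1a was followed by Tek, the receptor of angiopoietins (0.918), then Uba7 (0.837) and Vegfc, a vessel growth factor (0.794). Mfsd2a was followed by Mrps2 (0.779), Tek (0.761) and Prpsap1 (0.760), and Cldn5 by Vps72 (0.878), Rflnb (0.875) and Nos3, the endothelial nitric oxide synthase (0.871). Tek was thus among the 3 nearest genes of both Mfsd2a and Abcb1a. Within the injected libraries alone its r was 0.399 with Mfsd2a and 0.782 with Abcb1a, against 0.84 and 0.94 within OIR.

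Tjp1 had the highest single value, with Tnpo2 (0.932), then Zfp609 (0.903) and Dlc1 (0.890). Ocln was followed by Apod (0.837) and Mrps2 (0.755), and Pecam1 by Arpc5, Net1 and Tspan4 (0.811, 0.810 and 0.807). Esam was followed by Mpst (0.877), Slc29a4 (0.855) and Siah2 (0.843), though Siah2 gave r of -0.088 and Slc29a4 0.422 within the injected libraries alone. Plvap was followed by Ubald1 (0.864, and 0.454 within the injected libraries alone), Pdcd6ip (0.861) and Lix1l (0.858). Cav1 was followed by Pgm1 (0.885), Higd1a (0.810) and Ankrd37 (0.807).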

How the data were processed

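Bulk RNA-Seq of whole mouse retina was analysed in 20 libraries, 5 in each of 4 groups taken from the labels. The authors made stranded mRNA libraries, read 100 bp from both ends of each fragment, aligned the reads to GRCm39 with HISAT2 (2.0.4) and estimated expression with RSEM (1.2.18), and deposited FPKM per gene to 2 decimals. The authors used DESeq2 (1.4.5) for their own tests. The deposited FPKM values are not counts, so no count model was used, depth is unknown, and no interval from counts is given. The study took 5 whole retinas per group, and whether each came from another animal is not given in the sources used here. Its methods give 0.01% dimethyl sulfoxide in Ceapin-A7 and 0.05% in saline, while the labels give both solutions the same range. No sample column was left unused. The saline columns carry a suffix whose meaning is not given in the sources used here, and were matched to the saline labels by group and number.

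Each library's FPKM were rescaled by a median-of-ratios factor, and log2(FPKM + 0.1) was compared with limma (3.58.1, eBayes with trend) in R (4.3.3) over genes with a mean above 0.1 FPKM, each experiment in its own fit. P-values were adjusted by Benjamini-Hochberg across every gene in a fit, fold changes understate the change of low genes, and p-values measure the spread between these libraries. The fit was tested on simulated data. The 10 genes, the gene lists and their rules were chosen with earlier results of these data known. All 10 genes are named, and from each list other than cell type markers up to 4 genes per experiment with the smallest p of 0.05 or less. The 3 most correlated genes are named for each member, except 1 gene that is not reported here, as are the most abundant or defining markers. Values of Abcb1b, Ddx3y and the 5 genes past the adjusted threshold were added after they were seen.

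Marker lists of Muller glia, astrocytes, microglia and macrophages, and erythroid cells were also summed. In OIR they had 1 of 8, 0 of 4, 1 of 8 and 0 of 5 tested genes at p of 0.05 or less, and after Ceapin-A7 3 of 8, 1 of 4, 1 of 8 and 0 of 5, against 2 of 8 and 1 of 8 for rods. Of all genes tested, 12.7% in OIR and 10.4% after Ceapin-A7 had such a p. Alternatives were 2 pseudocounts, 2 filters, 3 scalings, a covariate of endothelial markers, array weights in limma, limma without trend, all 20 libraries fitted together, a block for the replicate number, and leaving out each library. Covariates of pigment epithelium markers and of Ddx3y status, and a fit without saline replicates 4 and 5, were added after the data were seen. Promoter windows were read from a RefSeq table on GRCm38.p6, which also gave overlapping genes and nothing else.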

Additional observations from a re-analysis of the deposited data

Results flagged for a closer look

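In each group of 5 libraries, the highest or lowest value was set against the range of the group for each of the 10 genes. Of the 40 groups tested, 2 held a value far from the others, and chance alone flags about 1 group in 20. Cldn5 was at 20.88 FPKM in saline replicate 5, where the next highest saline library had 15.65, a gap of 0.720 of the range. Ocln was at 2.04 FPKM in Ceapin-A7 replicate 5, where the next highest had 1.55, a gap of 0.803 of the range. Without those libraries the differences between Ceapin-A7 and saline were -0.021 for Cldn5 and -0.26 for Ocln, neither at p of 0.05 or less.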

How the results depend on the processing

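Alternatives left the sign of Ocln, Tjp1, Pecam1, Mfsd2a, Plvap and Cav1 as it was in OIR, and of all 10 genes but Cdh5 after Ceapin-A7, which was 0.011 with saline replicates 4 and 5 both left out. In OIR the count of the 10 genes at p of 0.05 or less, 2 in the report, was 0 with no filter on low values, 1 after rescaling to the same sum (TPM), 1 for limma without trend, 0 with the pigment epithelium covariate, and 0 to 3 with a library left out. Over all genes, 2262 of 19368 passed with no filter, and of 15704 genes 1840 after TPM, 1898 without trend and 858 with that covariate. With a library left out, 1092 to 4011 of all genes passed. After Ceapin-A7 the count, 1 in the report, was 2 with no filter and 2 after TPM, where 1705 of 19102 and 1699 of 15408 genes passed. With array weights 2 of the 10 had an adjusted p under 0.05 in OIR, Cdh5 at -0.58 (limma adjusted p 0.0443) and Plvap at -0.49 (0.0303), while Mfsd2a was at 0.20, Cldn5 at -0.36 and Abcb1a at -0.14; 2769 of all genes then passed, against 5 in the report (11 with all 20 libraries in 1 fit and 9 without Atf6-/- replicate 5). With the endothelial covariate the median was 0.17, Cldn5 0.41, Cdh5 0.20 and Esam 0.11, and with the pigment epithelium covariate it was 0.062, Cldn5 0.096, Esam 0.034 and Cdh5 -0.051. With a library left out, Cldn5 ranged from -0.17 to 0.12 and Abcb1a from -0.13 to 0.18 in OIR. The causes were not tested.

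With the replicate block, 1 of the 10 genes in OIR had p of 0.05 or less, Plvap, and Mfsd2a had p of 0.0708. With each group centred on its own mean, same-numbered libraries had correlations from -0.26 to 0.21 in OIR and from -0.22 to 0.31 after injection. Of the Atf6+/+ and saline libraries, only saline replicate 1 correlated best with its own number. Whether the numbers pair libraries cannot be told from these correlations. With the block, as without it, 0 of the 10 had an adjusted p under 0.05 by limma, and after Ceapin-A7 1 had p of 0.05 or less.

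Over all genes in OIR, the count at p of 0.05 or less, 2002 in the report, was 5749 with array weights, 649 with the endothelial covariate, 858 with the pigment epithelium covariate, 3762 without Atf6+/+ replicate 4, 4011 without Atf6-/- replicate 5, and 1301 and 1092 without Atf6+/+ replicate 1 and Atf6-/- replicate 4. After Ceapin-A7 the adjusted count was 1 with all 20 libraries in 1 fit, against 0, and the count at p of 0.05 or less was 1595, and 2529 and 956 without saline replicates 2 and 4, and 769 without replicates 4 and 5. The share of higher genes among them, 54.4% in OIR, was 30.5% for FPKM as deposited and 31.0% after TPM, and 48.7% after Ceapin-A7 became 26.8% after TPM. Depth is unknown, so the precision of the low genes Ocln, Mfsd2a and Abcb1a rests on the spread between 5 libraries.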
